A study of Mus musculus with 5 samples.

Results

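Clones 30 and 42 of mouse cardiac progenitor cells were set against clones 1D, 11B and 20B, and the genes described are those on which both arrays of one side lay above, or below, all 3 arrays of the other side. Of 18193 named genes on the array, 9435 could be followed between the clones, and 2607 of these separated the sides in this way. They were chosen by the measured values themselves, by the log2 gap between the nearest arrays of the sides, so the gaps are a description and no test was made. The RNA of a clone went onto 1 Affymetrix array, so no clone had a replicate and no difference has a replicate check. The title of the series asks about heterogeneity in the production of SDF-1, a chemokine, among such cells and their capacity to form vessels.

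All 5 groups had the same origin: left ventricles of adult mice 5 to 6 months old, strain spelled C67BL/6 in the labels, with no treatment named. The cells were pulled out with magnetic beads through an antibody to Sca-1, grown out of cardiospheres, cloned with rings and subcloned by dilution. They are labelled c-kit+ cardiac progenitor cells, and sca-1, c-kit and oct-4 were looked for by immunostaining. Each line is 1 clone, and whether clones came from separate mice is not given in the sources used here. The labels do not single out clones 30 and 42: the division was proposed from the values. The deposited values were ratios, each probe set divided by its median of 5 arrays or a floor value, and they carry differences between clones but no expression level.

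Cardiac progenitor cells are rare cells of the adult heart that can be expanded in culture and are studied for their capacity to give rise to vascular and muscle cells. Sca-1 and c-kit are surface proteins used to isolate them, the latter being the receptor of stem cell factor. A clone grown from 1 cell can keep properties of that cell and can acquire others in culture. Clones of the same tissue can differ in the genes of adhesion, matrix, metabolism and signalling that they use.

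The labelled identity could be checked only in part. Kit, which encodes c-kit, had a ratio of 1.18 in clone 20B and 0.991 to 1.002 in the other clones on its measured probe set. Pou5f1, which encodes oct-4, stayed below the floor at 0.572 to 0.58 in all clones, and Ly6a, which encodes Sca-1, had no probe set of its own. Xist and the Y-linked genes checked gave no signal that set the sides apart beyond a gap of 0.02 log2 unit. Cxcl12, which encodes SDF-1, was not among the separated genes. On its probe set divided by the own median the ratio was 0.307 in clone 30 but 1.001 in clone 42. On that probe set it was 1.89 in clone 11B and 0.997 and 1 in clones 1D and 20B. The other measured probe set gave 0.974 in clone 30 and 1.056 in clone 42, with 2.78 in clone 11B and 0.984 and 0.987 in clones 1D and 20B. The low value in clone 30 thus rested on 1 of 2 measured probe sets.

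In these bulk samples, fewer cells of a type and less RNA per cell cannot be told apart. How far probe sets of the same gene disagree was read from 6681 pairs. The difference between the means of the sides varied within a pair with a standard deviation of 0.36 log2 units, or 0.25 for a single probe set. Both probe sets of a pair share the same arrays, so this holds no variation between arrays or cultures. Of the 18 hybridization controls, which are added to every array, 11 also separated the sides. On these, both clones 30 and 42 lay below the other 3, with a gap of at most 0.06 log2 units, and the poly-A spikes had a median log2 ratio of 0.33 in clone 30 and -0.40 in clone 42. For Actb the 5' signal relative to the 3' signal was 0.743 in clone 30 and 1.08 in clone 42, within the range of 0.597 to 1.08 in the other clones. The part of these array differences in the smallest gaps was not tested.

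Clones 30 and 42 were higher on 1218 genes, which is 12.9% of the measured genes, and lower on 1389, which is 14.7%. Most of these gaps were tiny: 708 of the 1218 and 926 of the 1389 were 0.05 log2 units or less, the size seen in the hybridization controls. The filter on low and flat values bore on the directions unequally: of the genes that passed it in the arrays of clones 1D, 11B and 20B alone, 7713 in number, 802 were higher and 1284 lower. The other separated genes passed only with clones 30 and 42 included, so on them at least 1 of these clones had to differ. At a gap of at least 0.5 log2 units, a 1.41-fold distance between the nearest arrays, 44 genes were higher (0.466%) and 65 lower (0.689%). At a gap of at least 1, a 2-fold distance, 3 genes were higher (0.0318%) and 17 lower (0.18%). Because the rule used these same values, the percentages give the scale of the selection and nothing more. Just inside the limit of 1 lay Clptm1l and Ice1 on the higher side, each at 1.06, and Parl (-1.02), Psmg1 (-1.01) and Nqo1 (-1.01) on the lower. Just outside it lay Rhob (0.93), Nsun2 (0.89) and Lsr (0.89), and Eif4a2 (-0.99), Ccdc58 (-0.94) and Timm17a (-0.94).

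Upstream sequences are shown for the genes at the far ends of both directions, so that the letters before their starts can be read beside the values. They are the 250 bases before the annotated start, taken from RefSeq's table for GRCm38.p6 and written 5' to 3' on the gene's strand, with capitals marking GGGCGG (the GC box) and CCAAT on either strand. Cd81, Lama5 and Nbea had the largest gaps downward, and Ice1 and Rhob were among the 4 largest upward. The windows are chr7:143052500-143052749 on the plus strand for Cd81, chr2:180225860-180226109 on the minus strand for Lama5, chr3:56183702-56183951 on the minus strand for Nbea, chr13:70637635-70637884 on the minus strand for Ice1 and chr12:8500010-8500259 on the minus strand for Rhob. Cdh13 and Clptm1l were the other genes with large upward gaps.
Cd81: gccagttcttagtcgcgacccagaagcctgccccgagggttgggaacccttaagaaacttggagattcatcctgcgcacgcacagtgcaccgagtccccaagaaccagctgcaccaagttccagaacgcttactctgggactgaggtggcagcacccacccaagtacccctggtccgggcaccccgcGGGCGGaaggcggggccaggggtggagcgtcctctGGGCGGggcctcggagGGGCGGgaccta
Lama5: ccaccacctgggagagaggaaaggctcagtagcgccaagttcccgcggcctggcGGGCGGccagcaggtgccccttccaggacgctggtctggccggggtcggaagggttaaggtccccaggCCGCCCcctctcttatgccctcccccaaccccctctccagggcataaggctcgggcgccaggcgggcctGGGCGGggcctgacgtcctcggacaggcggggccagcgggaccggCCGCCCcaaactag
Nbea: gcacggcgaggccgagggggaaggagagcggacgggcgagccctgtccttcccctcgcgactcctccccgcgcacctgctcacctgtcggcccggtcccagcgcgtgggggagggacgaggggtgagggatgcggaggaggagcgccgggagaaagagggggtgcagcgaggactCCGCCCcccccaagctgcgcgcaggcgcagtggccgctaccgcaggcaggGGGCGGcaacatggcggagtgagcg
Ice1: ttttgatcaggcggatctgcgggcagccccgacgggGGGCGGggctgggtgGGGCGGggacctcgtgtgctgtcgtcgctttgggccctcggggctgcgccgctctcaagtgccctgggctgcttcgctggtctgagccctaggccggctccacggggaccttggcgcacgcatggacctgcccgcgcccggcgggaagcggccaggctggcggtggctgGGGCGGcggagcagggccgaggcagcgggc
Rhob: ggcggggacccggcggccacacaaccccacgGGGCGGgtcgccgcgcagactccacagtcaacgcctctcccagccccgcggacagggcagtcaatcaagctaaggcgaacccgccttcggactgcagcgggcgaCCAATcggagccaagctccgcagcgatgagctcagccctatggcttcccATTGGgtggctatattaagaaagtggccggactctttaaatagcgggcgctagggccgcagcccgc

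GC boxes appeared in all 5 windows: 3 in Cd81, 4 in Lama5, 2 in Nbea, 3 in Ice1 and 1 in Rhob. Only the window of Rhob held CCAAT, with 2 matches. Of the 65 lower genes at a gap of at least 0.5, 63 had an entry in the table, and 71.4% of these held GGGCGG, against 59.0% of 39 higher genes with an entry and 58.4% of 7688 measured genes with one. CCAAT was found in 33.3% of the higher, 34.9% of the lower and 35.9% of all measured genes. TATAAA was found in 10.3%, 4.76% and 7.12%, the E-box CACGTG in 12.8%, 6.35% and 8.46%, and TGANTCA, the letters bound by AP-1, in 5.13%, 1.59% and 4.68%. The motifs were searched on both strands in the same 250 bases, and none of the motifs contains another. The median number of CpG was 17 in the higher, 18 in the lower and 16 in all measured genes. A match is a run of letters and says nothing of binding.

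Among the genes higher in clones 30 and 42, Cdh13 stood far in front. It encodes T-cadherin, a cadherin held in the membrane by a lipid anchor and known from vascular cells. Its log2 ratio was 2.47 in clone 30 and 2.29 in clone 42, whereas it was -0.11 in clone 1D, -0.06 in clone 20B and -1.86 in clone 11B. The groups did not overlap, and the gap of 2.35 log2 units was a 5.11-fold distance between clone 42 and clone 20B. All 3 measured probe sets of Cdh13 separated the sides: on the first of them the ratios were 8.48 and 6.65 in clones 30 and 42 and 0.281 to 1 in the others.

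The next genes upward rested on 1 probe set each. Clptm1l, which encodes a membrane protein of the endoplasmic reticulum, lay at 1.33 in clone 30 and 1.06 in clone 42, while clones 1D, 11B and 20B lay between -0.01 and 0. Being flat in those 3 clones, it passed the filter only through clones 30 and 42. Ice1, a subunit of the complex that drives transcription of small nuclear RNA genes, lay at 1.62 and 1.06 against -0.08 to 0. Rhob, a small GTPase of endosomes and the actin cytoskeleton, lay at 1.77 and 0.93 against -0.997, -0.68 and 0 in clones 1D, 11B and 20B. In all 3 genes clone 30 was the highest array and clone 42 the next. The probe set of Ice1 is of a type marked for cross-hybridization, so the gene has no value without such probe sets.

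Loxl1, a lysyl oxidase that crosslinks elastin, was higher at 0.80 in clone 30 and 0.84 in clone 42, whereas it was -1.13 in clone 1D, -0.09 in clone 11B and 0 in clone 20B. Sdha, the catalytic subunit of succinate dehydrogenase, was one of the genes on which clone 42 lay farther out, at 1.24 against 0.79 in clone 30 and -0.52 to 0 in the others. Dusp1, a phosphatase that switches off MAP kinases and is induced early after stimulation, lay at 0.99 and 0.53 against -0.21 to 0. Other genes with gaps between 0.69 and 0.90 were Nsun2, an RNA methyltransferase, Lsr, a lipoprotein receptor of cell corners, Antkmt, a methyltransferase of the mitochondrial nucleotide carrier, Gpr108, Reps1, Micos13, an organiser of mitochondrial cristae, Srpk3, Basp1 and Lurap1l. Srpk3 had no measured probe set divided by its own median and passed the filter only because clones 30 and 42 rose above the floor. The measured probe set of Reps1 is of a type marked for cross-hybridization. Over the 44 genes at a gap of at least 0.5, clone 30 lay farther out on 30 and clone 42 on 14, and the median distance between these clones was 0.21 log2 units.

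Downward, the largest gap was that of Cd81, a tetraspanin that organises receptors and integrins at the cell surface. Its log2 ratio was -4.38 in clone 30 and -4.37 in clone 42, whereas it was 0.00 in clone 1D, 0 in clone 11B and 1.80 in clone 20B. In ratios, clones 30 and 42 lay at 0.048 and 0.0482 of the median, a distance of 20.8-fold from clone 11B. The gene had 1 probe set, and the closeness of its low arrays was within the limit of 0.02 log2 units used to call clones tied.

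Lama5 encodes the alpha chain of laminins found in the basement membranes of vessels and epithelia. It lay at -3.11 in clone 30 and -2.73 in clone 42, against 1.66, 0 and 1.09 in clones 1D, 11B and 20B. This came from 1 probe set alone: the other two were flat, with ratios of 0.991 to 1.013 and 0.889 to 0.91. Nbea, a scaffold of membrane trafficking, lay at -2.17 and -2.19 in clones 30 and 42, but the other side was wide, with 3.03 in clone 1D, 0 in clone 11B and 0.27 in clone 20B. Averaging the flat probe sets of Lama5 with the measured one reduced its gap from -2.73 to -0.91.

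Of the 17 genes lower by a gap of at least 1, Tomm70a, Opa1 and Parl act in mitochondria. Tomm70a, a receptor for protein import into mitochondria, lay at -1.42 in clone 30 and -1.85 in clone 42 against 0 to 0.24, on 2 measured probe sets that both separated the sides. Opa1, which fuses the inner mitochondrial membrane, lay at -1.63 and -1.25 against 0 to 0.50. Parl, a protease of the same membrane that acts on Opa1 among others, lay at -1.02 and -1.95 against 0 to 0.49. All 3 are encoded on chromosome 16, per RefSeq GRCm38.p6.

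Psma4, a subunit of the proteasome core, lay at -1.50 and -1.49 against 0 to 0.67, and Psmg1, a chaperone that helps to assemble that core, at -1.01 and -1.69 against 0 to 0.15. Dnajb11 and Erlec1 act in folding and quality control in the endoplasmic reticulum. Dnajb11 lay at -1.35 and -1.32 against 0 to 0.47, and Erlec1 at -1.39 and -1.30 against 0 to 1.00. Tfg, which organises export from the endoplasmic reticulum, lay at -1.12 and -1.66 against 0 to 0.13. On each of these 5 genes the highest of the low clones stayed at least 1.01 log2 units below the nearest of the others, on 1 measured probe set each.

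Adm encodes adrenomedullin, a vasodilator peptide secreted by vascular cells and induced by low oxygen, and lay at -1.12 in both clones against 0 in clone 1D, 1.18 in clone 11B and 1.40 in clone 20B. Its 2 probe sets both separated the sides, at gaps of -0.42 and -1.65, and without the one marked for cross-hybridization the gap was -0.42. Zeb2, a transcription factor of the epithelial to mesenchymal transition, lay at -0.90 and -1.22 against 0.13 to 0.34. Of its 3 measured probe sets 2 had gaps of -1.07 and -1.58, and on the other the gap was -0.016. Nqo1, a quinone reductase of the antioxidant response, lay at -1.86 in clone 30 and -1.01 in clone 42 against 0 to 0.24.

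Rfc4, of the clamp loader that DNA replication needs, lay at -1.42 and -1.25 against 0 to 0.11. Rab28, a small GTPase, lay at -1.01 and -1.12 against 0.12 to 0.27 on 2 probe sets. Zbtb43, a zinc finger gene, lay at -1.10 and -1.35 against 0.08 to 0.11, but its other probe set did not separate the sides. Of the 17 genes at a gap of -1 or beyond, 12 rested on 1 measured probe set, and of the 5 with more, all probe sets separated the sides the same way on 4. Of the 65 at -0.5 or beyond, 22 had more than 1 measured probe set and 13 of these were of one mind. The corresponding counts upward were 8 and 7 of the 44.

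**Figure D1:**
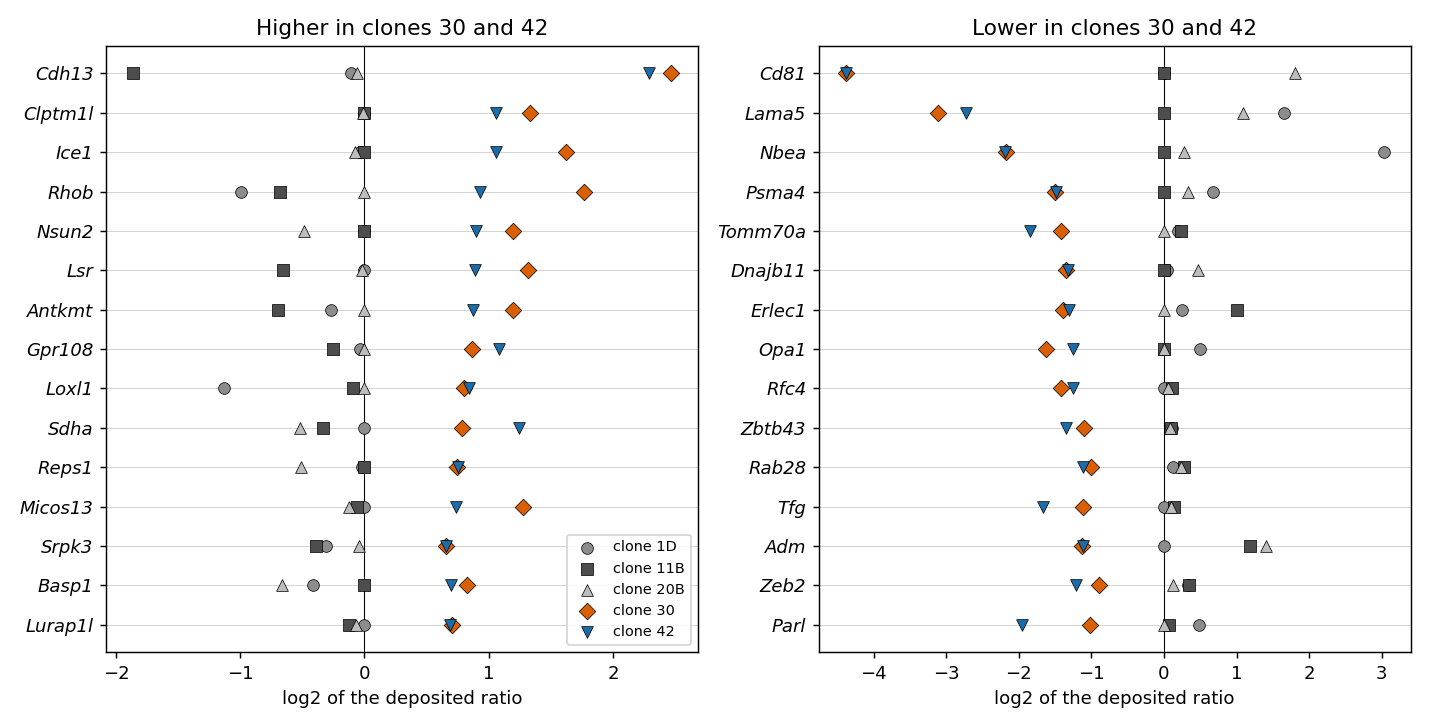
Log2 of the deposited ratio (horizontal axis) in each of the 5 clones for the 15 genes with the largest gap upward (left) and downward (right), 1 point per clone and gene. On every gene shown both coloured points (clones 30 and 42) lie on one side of all grey points, and Cdh13 and Cd81 lie farthest out.

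How often the arrays of a side were tied depended on the gap. At any gap, clones 30 and 42 lay within 0.02 log2 units of each other on 447 of the 1389 lower genes and on 84 of the 1218 higher ones, while clones 1D, 11B and 20B were tied on 50 of the lower and 292 of the higher genes. At a gap of at least 0.5, clones 30 and 42 were tied on 6 of the 65 lower and 5 of the 44 higher genes. At a gap of at least 1 such ties were 4 of the 17 lower genes and none of the 3 higher ones. Whether tied low arrays lie at a common lower limit of the signal was not tested. A tie adds no measurement of how alike the clones are.

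The sides were then compared with the other 9 divisions of the same 5 clones into 2 and 3, which share all arrays with this one. Clones 30 and 42 against the rest gave the most separated genes at each gap: 2607 at any gap, against 1376 to 2243 in the other divisions, 109 at a gap of at least 0.5, against 7 to 73, and 20 at a gap of at least 1, against 0 to 8. With gaps of 0.05 log2 units or less left out, the count was 973, against 356 to 901. The next division at each of these was clones 11B and 30 against the rest. The order did not hold in every single direction. At any gap clones 1D and 42 were higher on 1376 genes, above the 1218 here, and clones 11B and 30 lower on 1503, above the 1389 here. At a gap of at least 1 clones 1D and 20B were higher on 6 genes, against 3 here.

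The first place held for genes but not for probe sets. Counted in probe sets, clones 11B and 30 came first, with 242 at a gap of at least 0.5 and 58 at a gap of at least 1, and clones 30 and 42 next, with 168 and 33. With 1 probe set per gene, that with the highest mean, clones 30 and 42 stayed first, with 115 genes against 107 for clones 1D and 42 at a gap of at least 0.5 and 20 against 18 at a gap of at least 1.

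**Figure D2:**
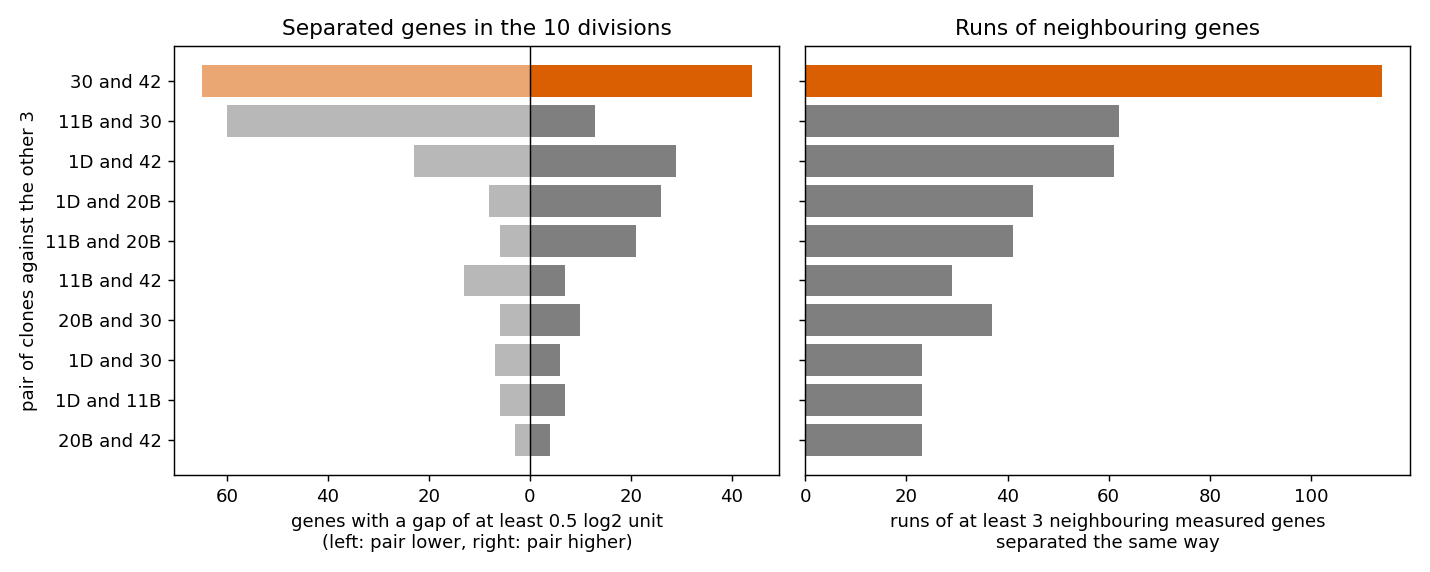
Number of genes with a gap of at least 0.5 log2 unit (left panel; bars to the left for the pair lower, to the right for the pair higher) and number of runs of at least 3 neighbouring measured genes separated the same way (right panel) for the 10 divisions. Clones 30 and 42 had 65 lower and 44 higher genes and 114 runs, and the other divisions at most 62 runs.

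The separated genes were also followed in their order along the chromosomes, a position that the rule did not use. Runs are built from the same gaps, and a division with more separated genes can hold more runs by that number alone. This division had the most separated genes, and the counts were not adjusted for it. Runs of at least 3 neighbouring measured genes separated the same way numbered 114, against 23 to 62 in the other 9 divisions, and runs of at least 5 numbered 16, against 1 to 4. With gaps of 0.05 log2 units or less not counted, there were 28 runs of 3 or more, against 1 to 14, and 3 runs of 5 or more, against 0 in each other division. The longest run held 10 genes on chromosome 16, all lower in clones 30 and 42: Zbtb11, Pcnp, Trmt10c, Senp7, Tfg, Tomm70a, Nit2, Tbc1d23, Cmss1 and Filip1l. Another on the same chromosome held 8, Ap2m1 to Polr2h, with Psmd2 and Clcn2 among them. Runs upward were shorter, the longest holding 6 genes.

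Stretches in which at least 12 of 20 consecutive measured genes were separated the same way numbered 14, against 0 to 3 in the other divisions. The window was chosen after the values were seen, and the counts were not adjusted for the number of separated genes. Of the 14, 8 were lower in clones 30 and 42, with 232 measured genes in them, and 6 higher, with 143. They held 28 of the 65 lower genes and 16 of the 44 higher genes at a gap of at least 0.5. Outside the stretches, 37 lower and 28 higher genes remained at that gap, 65 in all, and 11 at a gap of at least 1. Clones 11B and 30 had 71 and 8 genes outside their own stretches. Since stretches are found by a division's own separated genes, and this division had the most, leaving them out lowers its counts by construction, and no order of the divisions was read from these counts.

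Of the downward stretches, 3 lay on chromosome 16. From Gnb1l to Opa1, 33 of 45 measured genes were lower in clones 30 and 42 and none was higher. The mean log2 ratio over these 45 genes was -0.39 in clone 30 and -0.47 in clone 42, against 0.19, 0.07 and 0.15 in clones 1D, 11B and 20B. Dnajb11, Opa1, Rfc4, Parl and Eif4a2, a helicase of translation initiation, lay in it, as did Ap2m1, Clcn2, Senp2 and Psmd2. From Slc35a5 to Dcbld2, 19 of 28 genes were lower, Tomm70a, Tfg, Senp7 and Filip1l among them, and from Cbr1 to Zbtb21, 12 of 20, with Psmg1, the carbonyl reductase Cbr1, the chromatin protein Hmgn1 and Morc3. Chromosome 16 in all held 19 of the 65 lower genes at a gap of at least 0.5 and 7 of the 17 at a gap of at least 1, and 313 of the 9435 measured genes.

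Not all of chromosome 16 was lower. On the same chromosome 56 of the 313 genes were higher in clones 30 and 42 at any gap, and 90 lower. A run of 5 genes from Pros1 to Chmp2b was higher, with a largest gap of 0.27 at Zfp654, and Hmox2, a heme oxygenase, and Hacd2 were higher at gaps of 0.61 and 0.59. On Hacd2 the clones of the side differed widely, at 1.94 in clone 30 and 0.59 in clone 42.

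On chromosome 1 there were 2 stretches downward. From Fn1, the gene of fibronectin, to Slc4a3, 25 of 41 genes were lower, with means of -0.27 in both clones 30 and 42 against 0.00 to 0.22 in the others. Ctdsp1, a phosphatase that acts on RNA polymerase II, had the largest gap there, -0.79, followed by Atg9a, of autophagy, at -0.77. From Dstyk to Aspm, 19 of 34 were lower, with Timm17a, of mitochondrial import, at -0.94 and Aspm, a spindle protein, at -0.86. The measured probe sets of Aspm had gaps of -1.28 and -0.013, the latter on a floor probe set that only clone 1D raised above the floor. Shorter stretches downward lay on chromosomes 2, 4 and 18.

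Upward stretches lay on chromosomes 9, 10, 11, 13 and 17. On chromosome 13 from Zfp595 to Zfp825, 19 of 30 genes were higher and none was lower, with means of 0.24 in clone 30 and 0.41 in clone 42 against -0.04, -0.11 and -0.08 in clones 1D, 11B and 20B. Clptm1l, Ice1, Nsun2 and Sdha, described above, and the calcium-binding protein Pdcd6 were 5 of them. On chromosome 17 from Mpnd to Gpr108, 18 of 29 were higher, with means of 0.35 and 0.43 against -0.04, -0.10 and -0.14. Lonp1 and Clpp, which are proteases of the mitochondrial matrix, lay there at gaps of 0.67 each, with Micos13 (0.73), Alkbh7 (0.68), the transcription factor subunit Gtf2f1 (0.65) and Trip10 (0.61). The only probe set of Trip10 is of a type marked for cross-hybridization. On chromosome 9 Smarca4, the motor of a chromatin remodeller, and Cdc37, a kinase chaperone, had gaps of 0.67 and 0.52. For Cdc37 only 1 of 2 measured probe sets separated the sides.

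With only gaps over 0.05 log2 units counted and 10 of 20 genes asked for, 6 stretches were left here, against 0 or 1 in each other division. They lay on chromosomes 1, 4 and 16 (2) downward and on 13 and 17 upward. The means of both clones were below those of clones 1D, 11B and 20B in each of the 4 downward stretches and above them in both upward ones, as the selection of stretches requires.

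**Figure D3:**
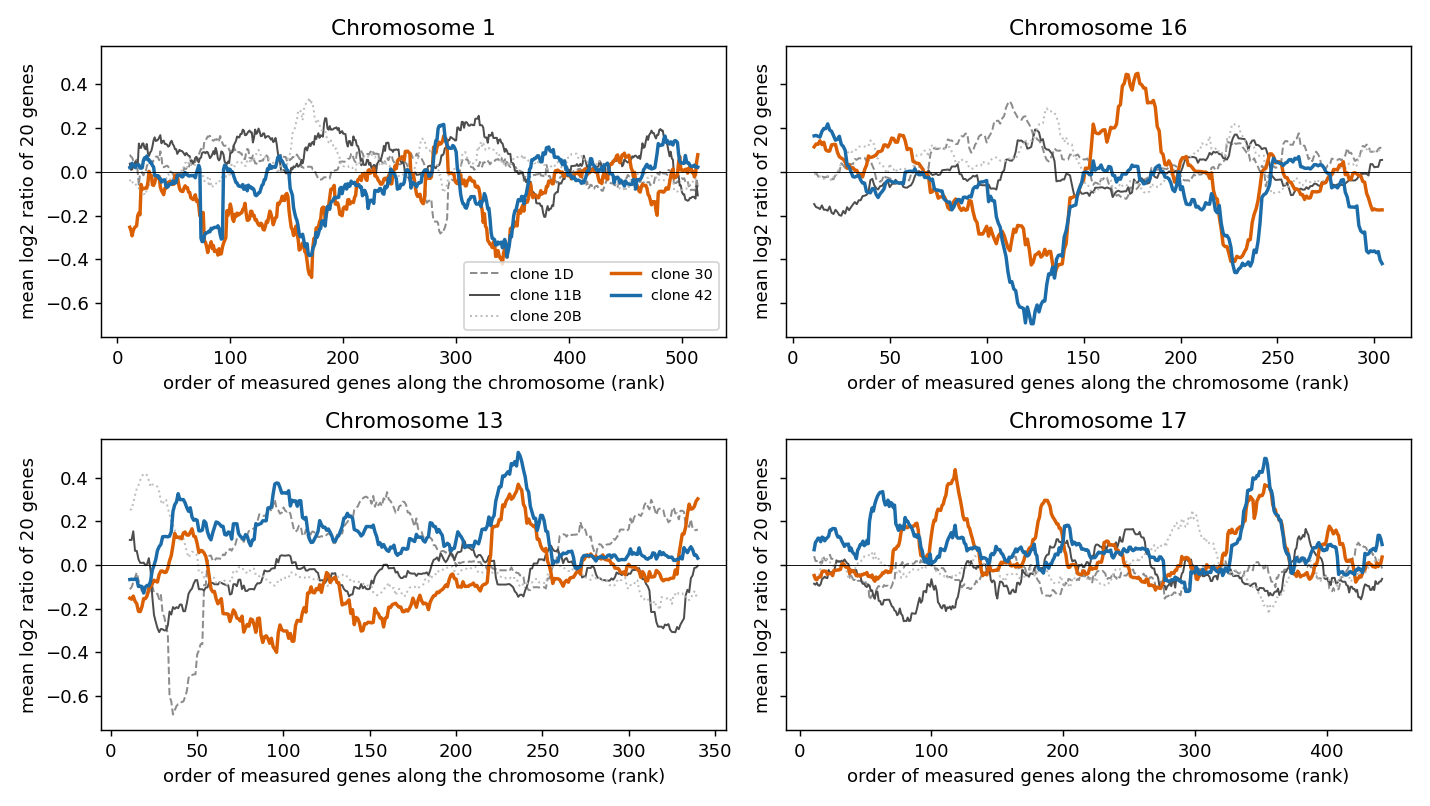
Mean log2 ratio of 20 consecutive measured genes (vertical axis) against the order of measured genes (horizontal axis, rank) on chromosomes 1, 16, 13 and 17, 1 line per clone. Clones 30 and 42 dip together on chromosome 1 and on chromosome 16 and peak together on chromosomes 13 and 17, and elsewhere, as in the earlier part of chromosome 13, they part.

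Whole chromosomes leaned as well. At a gap over 0.05 log2 units, 973 of all 9435 measured genes were separated, near evenly higher and lower. Counting gaps over 0.05 log2 units, 49 of 451 measured genes on chromosome 17 were higher in clones 30 and 42 and 1 was lower. On chromosome 11, 96 of 783 were higher and 10 lower, on chromosome 10, 50 of 466 and 7, on chromosome 14, 33 of 331 and 4, and on chromosome 12, 20 of 321 and 1. The opposite lean was seen on chromosome 1, with 15 higher and 69 lower of 523, on chromosome 4, with 9 and 61 of 586, and on chromosome 2, with 24 and 69 of 766. Chromosomes 5, 6, 7 and 9 were near even, with 28 and 27, 16 and 14, 34 and 31, and 21 and 24.

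The share higher and the share lower differed by at least 5 percentage points on 11 of 20 chromosomes here, against 1 to 6 in the other divisions. The largest single lean was not in this division: it was 15.2 points on chromosome 13 for clones 1D and 42, against 11.0 points on chromosome 11 here. Genes of a chromosome share arrays and neighbours, so these counts are a description. What lies behind the leans was not tested.

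**Figure D4:**
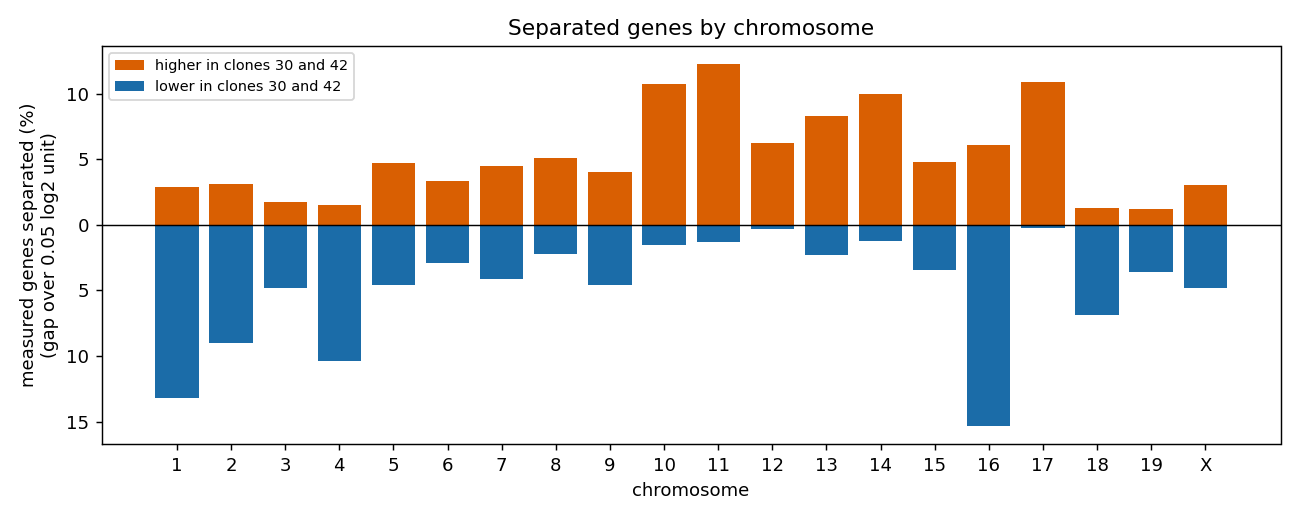
Share of measured genes (vertical axis, percent) higher (upward bars) or lower (downward bars) in clones 30 and 42 by a gap over 0.05 log2 unit, by chromosome. Chromosomes 10, 11, 14 and 17 lean upward and chromosomes 1, 2, 4 and 16 downward, the last reaching 15.3% lower.

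Gene lists of pathways, complexes and cell types, written with earlier results of these data known, were described next by their counts. Of all measured genes, 12.9% were higher and 14.7% lower, and each list's counts are to be read beside these shares. The counts include genes that passed the filter only with clones 30 and 42 included, as described above. The difference of a gene is the mean of clones 30 and 42 minus the mean of the other 3, and its median over all measured genes was -0.01. Of the 42 lists, those with members at large gaps and those on cardiac, vascular and signalling genes are given here. Of 35 measured genes of cytosolic ribosomal proteins, 12 were higher (34.3%) and 1 was lower (2.86%), none reached a gap of 0.5, and the median difference was 0.20. Rpl37 lay at 1.09 in clone 30 and 0.39 in clone 42 against -0.14 to 0. Rps19 lay at 0.34 and 0.50 against -0.39 to 0. The gaps were 0.39 and 0.34, and the only probe set of Rpl37 is of a type marked for cross-hybridization. The standard deviation of 0.25 for a single probe set was taken on differences between the means of the sides, and it is no error of these gaps.

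Among the 31 proteasome genes, all measured, 6 were higher (19.4%) and 3 lower (9.68%), beside 12.9% and 14.7% of all genes, and the median difference was 0.10. The members at a gap of at least 0.5 were Psma4 and Psmd2, a subunit of the regulatory cap, and both were lower. Psmd2 lay at -0.55 and -0.84 against 0.78, 0.79 and 0. Psmd3, another subunit of that cap, lay on the opposite side at 0.64 and 0.45 against -0.35 to 0.

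For the respiratory chain and ATP synthase, 11 of 55 measured genes were higher (20.0%) and 8 lower (14.5%), the latter at the share over all genes, with a median difference of 0.04. Sdha was the member at a gap of at least 0.5. Atp5d, of the ATP synthase head, lay at 0.61 and 0.41 against -0.55 to -0.05. Both probe sets of Atp5d are of a type marked for cross-hybridization. Of the genes of DNA replication and S phase, 6 of 26 were higher and 3 lower. Rfc4 was lower, as was Mcm6 at -0.36 and -0.26 against 0 to 0.40, while Mcm7, of the same helicase, was higher at 0.27 and 0.66 against -0.43 to 0.00. Of the 29 measured mitosis genes 1 was higher and 3 lower, with a median difference of -0.08.

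In the signalling of TGF-beta, BMP and activin, 6 of 39 measured genes were higher and 7 lower, and the 3 at a gap of at least 0.5 were all lower. The ligand gene Tgfb1 lay at -0.81 in clone 30 and -0.79 in clone 42, whereas it was 0.77 in clone 1D, 0 in clone 11B and 0.09 in clone 20B. The receptor gene Acvr2a lay at -0.76 and -0.48 against 0.12 to 0.28, and Bmpr2, the BMP receptor known from pulmonary hypertension, at -0.67 and -0.39 against 0.15 to 0.59. For both receptors only 1 of 2 measured probe sets separated the sides. Tgfb3, another ligand gene, was higher at 1.53 and 0.27 against -0.02 to 0. It was flat in clones 1D, 11B and 20B and passed the filter only through clones 30 and 42. The median difference of the list was -0.02.

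Of 29 measured ligands of growth factor receptors, 1 was higher (3.45%) and 6 were lower (20.7%, beside 14.7% of all genes), with a median difference of -0.07. Besides Adm the lower ones were led by Bdnf, at -0.30 and -0.42 against 0.00 to 0.84, and Hbegf, at -0.12 and -0.14 against 0.17 to 1.13. By probe set the gaps were -0.56 and -0.03 for Bdnf and -0.02 and -0.21 for Hbegf. Of 25 measured genes in a list of growth factor receptors, which also holds IGF binding proteins and ephrins, 3 were higher and 6 lower. Pdgfra, a PDGF receptor also used as a marker of mesenchymal cells, was higher at 0.36 and 0.70 against -0.60 to 0.00, but only 1 of its 3 measured probe sets separated the sides. Nrp2 was lower at -0.29 and -0.24 against -0.09 to 0.51. No gene of this list reached a gap of 0.5.

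In the Wnt pathway, 4 of 25 genes were higher (16%) and 2 lower (8%), near the shares over all genes. Of the 23 that passed the filter in clones 1D, 11B and 20B alone, 3 were higher and 2 lower. The receptors Fzd2, at 0.55 and 0.48 against -0.77 to 0, and Fzd4, at 0.48 and 0.16 against -0.30 to -0.20, led. Fzd4 was measured on a floor probe set, only because clones 30 and 42 rose above the floor. For Fzd2 the gap was 0.84 on a probe set marked for cross-hybridization and 0.009 on the other measured one. In the Notch list 2 of 14 were higher and 1 lower. Its target gene Hes1 lay at 0.28 and 0.98 against 0, -1.66 and -0.07 in clones 1D, 11B and 20B.

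Fibrillar collagens and other matrix genes had 2 of 29 measured members higher and 6 lower, with a median difference of -0.10. Loxl1 was the only one at a gap of 0.5. Col5a2 lay at -0.28 and -0.34 against 0 to 0.67, and Fn1 at -0.09 and -0.21 against 0 to 0.50. The probe sets of Col5a2 had gaps of -0.55 and -0.006. For Fn1 only 1 of 2 measured probe sets separated the sides. Col3a1 counted as lower at a gap of -0.21, but nearly all of its difference lay in clone 42, at -6.33 against -0.21 in clone 30. Of the 12 genes of laminins and basement membranes 2 were higher and 3 lower, and Lama5 alone reached a gap of 0.5. Of 21 matrix proteases and inhibitors 1 was higher and 4 were lower. Timp3, an inhibitor bound to the matrix, was the higher one, at 0.29 and 0.25 against -0.28 to -0.20. Its gap was 0.63 on a floor probe set, measured only because clones 30 and 42 rose above the floor. On its probe set divided by the own median the gap was 0.007. Timp1, a soluble inhibitor, was lower at -0.11 and -0.19 against 0 to 0.52, and the protease Adamts1 at -0.56 and -0.20 against 0 to 0.33.

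In adhesion, 1 of 18 measured cadherin and junction genes was higher and 2 lower, and of the 16 tetraspanins 1 was higher and 2 lower. Cdh13 and Cd81 were the only members of these lists at a gap of 0.5. Cd82, another tetraspanin, lay on the opposite side from Cd81, at 0.13 and 0.21 against -0.08 to 0.00, but only 1 of its 2 measured probe sets separated the sides. None of the 10 measured integrins separated the sides. Of 36 antioxidant and aldehyde genes 1 was higher and 7 lower, with a median difference of -0.08. Besides Nqo1, Gclm, of glutathione synthesis, lay at -2.15 in clone 30 and -0.33 in clone 42 against 0 to 0.46, and Gstp1, a glutathione transferase, at -0.41 and -0.36 against 0 to 0.29.

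Of the 27 measured homeobox and positional genes 5 were higher and none lower. The filter fixed part of this: 22 of the 27 passed it in clones 1D, 11B and 20B alone, and 2 of these were higher. Hoxc9 lay at 0.28 and 0.98, Hoxa10 at 0.32 and 0.14, and Hoxd9 at 0.78 and 0.09, against -0.18 to 0 in the other clones, where Hoxc9 and Hoxa10 were flat. For Hoxa10 only 1 of 2 measured probe sets separated the sides. The homeobox genes on which the clones of the side parted are not counted among the 5 higher ones. Among 19 cardiac transcription factors 1 was higher and 4 lower. Mef2c, of the cardiac muscle program, lay at -1.16 in clone 30 and -0.32 in clone 42 against -0.03 to 0.65, but only 2 of its 4 measured probe sets separated the sides.

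**Figure D5:**
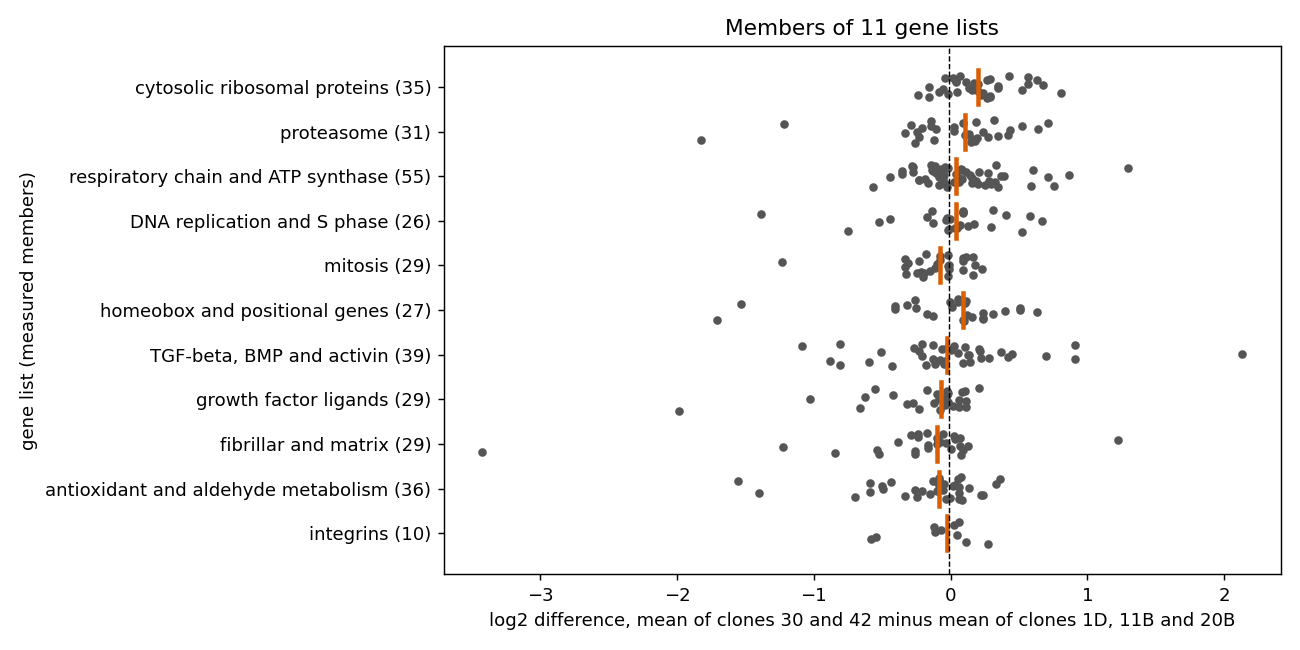
Log2 difference (horizontal axis) of the measured members of 11 gene lists, 1 grey point per gene, with the median of each list as an orange bar and the median of all measured genes as a dashed line. Of the 11 lists shown, that of ribosomal proteins lies farthest to the right, with a median of 0.20. The other medians shown lie between -0.10 and 0.10. The list of epicardial and mesothelial markers, with a median of 0.41, is not shown.

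Markers of other cell types that the clones could hold did not separate the sides beyond small gaps. In the 9 marker lists no member reached a gap of 0.5 in either direction. Of 23 endothelial markers on the array, 4 were measured and 1 was higher, and Pecam1, Cdh5, Kdr and Tek had only probe sets at the floor. The higher one, Tal1, was flat in clones 1D, 11B and 20B, and of the 3 markers that passed the filter in those clones alone none was higher. Of 21 blood and immune markers 8 were measured, with 1 higher and 2 lower, and Ptprc was at the floor. Of the 7 that passed the filter in clones 1D, 11B and 20B alone, none was higher and 2 were lower. The median log2 ratio of the measured fibroblast and mesenchymal markers, 13 of 26, was 0 in clone 30 and -0.10 in clone 42 against -0.01 to 0.04. Of these 13, 9 had a difference below 0 and 4 above, beside 4904 and 4531 of all 9435 measured genes. The difference was -0.92 for Cd44, -0.85 for Col1a1 and -0.77 for Alcam. Counted by gaps, 1 of the 13 was higher (Pdgfra) and 1 lower. Of 19 epicardial and mesothelial markers 7 were measured, with a median difference of 0.41, 5 above 0 and 2 below. Their median log2 ratio was 0.44 in clone 30 but -0.03 in clone 42, against -0.21 to 0 in the other clones. Of the 7, 2 were higher, Krt7 and Upk3b. Both had only probe sets at the floor and counted as measured only because clone 30 rose above it: Krt7 lay at 0.74 in clone 30 and -0.17 in clone 42 against -0.22 to -0.20, and Upk3b at 0.44 and -0.73 against -0.82 to -0.74. Of the 4 that passed the filter in clones 1D, 11B and 20B alone, none separated the sides.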

How the data were processed

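Total RNA of 5 clones was hybridized to Affymetrix arrays, 1 per clone. The deposited table holds a ratio for each of 45101 probe sets: the authors' values had a median over the arrays of exactly 1 on 18926 probe sets and below 1 on 26175, so division by the own median or by a floor was read from the values, and no source used here states it. RMA and GCRMA are named, without roles, per the submitters' processing notes. The design assumed expression levels, and ratios were used in their place. Arrays have no read depth, and precision is limited by how many there are.

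Probe sets with 1 gene symbol in the platform annotation (34945, with 932 of several symbols left out) were used, with symbols checked against RefSeq GRCm38.p6. Probe sets with a median of 1, or with any clone above 1, and a range over 0.05 log2 units were taken as measured, and a gene's value was the mean log2 ratio over them. The gap is the distance between the nearest arrays of the sides, and 1 log2 unit was the limit for a call. The gap calculation was tested on simulated data. No p-values were computed, since the sides and the genes were chosen from the same values.

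The members and gene lists were chosen with earlier results of these data known. Genes named were the 15 with the largest gap in each direction, up to 4 separated members of a list, the 3 on each side of the limit, and Cxcl12, the sex genes and the labelled markers, leaving out predicted gene models. Genes named in stretches, Hmox2 and Hacd2 were chosen after their values were seen. Motifs were searched in the 250 bases before the start, not in the planned window around it. No deposited column was left unused (0). Python 3.11.15, pandas 2.3.3, NumPy 2.4.6 and Matplotlib 3.10.9 were used. Alternatives covered the combination of probe sets, the floor, normalization and each clone left out.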

Additional observations from a re-analysis of the deposited data

How the results depend on the processing

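Of the 20 genes at a gap of at least 1 log2 unit, 12 kept it with every probe set averaged (which also removes the filter), 17 with only the probe set highest on average, 18 of the 19 measurable without cross-hybridizing probe sets, 19 with quantile normalization and all 20 in the other planned settings. Of the 109 genes at a gap of at least 0.5, none changed direction, but with the highest probe set only 102 stayed separated on the same side. Named genes at smaller gaps were not followed through the settings. With every probe set averaged, 2577 genes were lower at any gap, 29 higher at 0.5, 10 lower at 1, and stretches numbered 7. With the highest probe set, 5 genes were higher at 1. Leaving out each clone in turn can only add separated genes: counts ran from 1495 to 2876 higher and 1774 to 3305 lower at any gap, 57 to 414 and 83 to 382 at 0.5, and 5 to 80 and 20 to 92 at 1, with 166 to 502 runs and 20 to 78 stretches, the largest without clone 30 or clone 42. No place among the 10 divisions exists then. The remaining alternatives were chosen after seeing the data. With gaps of 0.05 or less not counted, 510 genes were higher and 463 lower, with 28 runs and 2 stretches of 12 in 20. By probe sets, 71 were higher at 0.5, and 7 higher and 26 lower at 1, in place 2 at both gaps. Without the genes of the stretches, 28 were higher and 37 lower at 0.5, in place 2 where the other divisions kept theirs, a loss that the way of choosing them fixes, and 1 higher and 10 lower at 1. No paired analysis was possible because each group has 1 array. Array signals over background were not analysed here, and for low arrays this limits the size of a gap.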

Other observations

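Further gene lists covered sugar and lipid metabolism, stress and degradation. Of 26 measured genes of glycolysis and hypoxia 5 were higher in clones 30 and 42 (19.2%, beside 12.9% of all measured genes) and 1 was lower, with a median difference of 0.11. Adm was the lower one, at a gap of -1.12, while Ldha, lactate dehydrogenase, lay at 0.16 and 0.30 against -0.60 to 0, and Pgam1, of the same pathway, at 0.27 and 0.19 against -0.18 to 0. The genes of cholesterol synthesis had none of 16 higher and 2 lower (12.5%, beside 14.7% of all measured genes). A difference below 0 was found on 13 of the 16, beside 4904 of all 9435 measured genes. Heat shock genes lay on both sides, with 2 of 18 higher and 3 lower: the mitochondrial chaperonin gene Hspd1 lay at -0.41 and -0.27 against 0 to 0.37, and Hspa8 at 0.22 and 0.15 against -0.04 to 0.00. Of 24 genes of the unfolded protein response 1 was higher and 4 were lower, and of 30 lysosomal genes 3 and 5. Atp6v1a, of the proton pump, lay at -0.50 and -0.63 against -0.22 to 0.44, but only 1 of its 2 measured probe sets separated the sides.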
